A study of Homo sapiens with 4 samples.

Results

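The 40 genes described here carry cells through mitosis: cyclins, kinases and phosphatases of the G2/M transition, spindle checkpoint proteins, triggers of mitotic exit, kinesin motors, centromere and chromosome proteins, proteins of the spindle midzone and of cytokinesis, and the transcription factor FOXM1. They were taken by name from a list, which was chosen with earlier results of these data known. A probe was found for 39 of the 40 through the accession that the array files give for it, and UBE2C was not matched to a name and was not analysed here. The 39 genes were read by 48 probes, out of 28507 probes and 23485 genes that passed the filter on dim signals. SB cells are SAS cells, an established line of human tongue squamous carcinoma, that stably express an shRNA (pLKO.1-LYRIC shRNA-B) against AEG-1, which the gene tables list as MTDH. SCt cells are SAS cells that carry the control vector, named as pLKO.1 in the sample labels and as a scrambled shRNA in the study's methods. Both were delivered by lentivirus and kept under puromycin (2 μg/ml, selection for 14 days) in medium with 10% serum. The study's methods call the cells stable clones, but do not say whether SB grew from 1 cell or is a pool. RNA of both was hybridized together on each of 4 dual-channel Agilent arrays, SB in red and SCt in green throughout, on 1 slide with 0 dye-swapped arrays, so that a preference of a probe for one dye and an effect of the shRNA cannot be told apart. The labels name the 4 arrays biological replicates without describing separate cultures, and p-values measure the spread between these arrays, which may be technical.

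The facts of the whole experiment that bear on these genes are few. MTDH itself, the target of the shRNA, was lower in SB cells on every array, with log2 ratios of −3.18, −3.01, −3.12 and −3.41 and a mean of −3.18 ± 0.17 (SD, n = 4 arrays, adjusted p = 5.2e-10 from limma). The median intensity per array was 655 to 875 in the SB channel and 362 to 588.5 in the SCt channel, and array 3 had the highest of both. All 8 markers of squamous epithelium (KRT5, KRT14, KRT17, KRT6A, TP63, CDH1, EPCAM and SFN) met the software's mark for signal well above background, in red and in green, on all 4 arrays. The same mark was met by 4 of 7 fibroblast markers, by the 5 leukocyte and by the 4 endothelial markers that were found, so being well above background on these arrays does not by itself separate cell types.

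Entry into mitosis is driven by CDK1 bound to B-type cyclins, which CDC25 phosphatases switch on. Kinesins and their partners then build the spindle, and the checkpoint proteins hold the cell until every kinetochore is attached. The anaphase-promoting complex with CDC20 then frees separase, and the midzone proteins divide the cell. Because most of these genes are transcribed in G2 and M phase, their mRNA in a culture is widely used as a sign of how many cells divide. In bulk RNA such as this, fewer cells in mitosis and less RNA per mitotic cell cannot be told apart.

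In the main fit, limma after loess on all 4 arrays, no mitosis and spindle gene passed the test in either direction. Of the 48 probes, 0 had an adjusted p under 0.05 (limma, Benjamini-Hochberg over all 28507 probes), against 3.7% of all probes. Likewise 0 of the 39 genes, each represented by its brightest probe, passed with a lower level in SB cells, against 2.26% of all genes. At an unadjusted p under 0.05, 11 of the 39 genes were lower and 0 higher after loess. Of all 23485 genes, 8.98% were then lower and 2156 genes were higher. With each array centred on its median in place of loess, 1 of the 39 was lower and 7 were higher. By that setting 15.5% of all genes were lower and 30.9% higher. After adjustment, 4 of the 39 passed with centring as higher and 1 as lower, where 20.8% and 11.2% of all genes did. By the methods' t-test on the loess values, 0 of the 39 genes passed after adjustment, as did 0 of all probes. At an unadjusted p under 0.05, 3 of the 39 were then lower, where 6.69% of all genes were. In the main fit the smallest adjusted p among the genes was 0.0634, that of KIF18A.

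After loess the differences were small on every gene. The mean log2 ratios of SB over SCt ran from −0.26 (KIF18A) to 0.09 (MKI67), with standard errors of 0.054 to 0.086 (n = 4 arrays). The 95% intervals of all 39 genes lay within 0.5 log2 units of 0, and those of 26 within 0.25. The lowest bound was −0.41, a ratio of 0.755 (KIF18A), and the highest was 0.24, a ratio of 1.18 (CDC25B). With median centring the means ran from −0.20 (KIF18A) to 0.32 (PLK1), and no intervals are given for that setting. Each of the 48 probes met the mark for signal over background in red and in green on every array, and each had a value on all 4.

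After loess normalization 30 of the 39 genes had a mean below 0 and 9 above, with a median of −0.06 beside 0.01 for all genes. Of all 23485 genes, 10479 had a mean below 0 after loess. With median centring 9 of the 39 had a mean below 0 and the median was 0.06, beside 0.07 for all genes. As that all-gene median shows, most genes of the whole array also had a mean above 0 by that setting. The genes CDK1, NEK2, BUB1B, ESPL1, KIF11, KIF14, KIF15, KIF18A, CENPE, CENPF, TPX2 and ECT2, lay below 0 on all 4 arrays after loess, which makes 12 of 39, where 12.1% of all genes did so. MKI67 alone lay above 0 on all 4 after loess, where 13.9% of all genes did, and the other 26 had arrays on both sides of 0. With median centring KIF18A alone lay below 0 on all 4 arrays (16.2% of all genes did), and 8 genes, AURKB, BUB3, CCNB1, CDC25C, KIF2C, MKI67, NUSAP1 and PLK1, lay above 0 on all 4 (34% of all genes did).

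**Figure D1:**
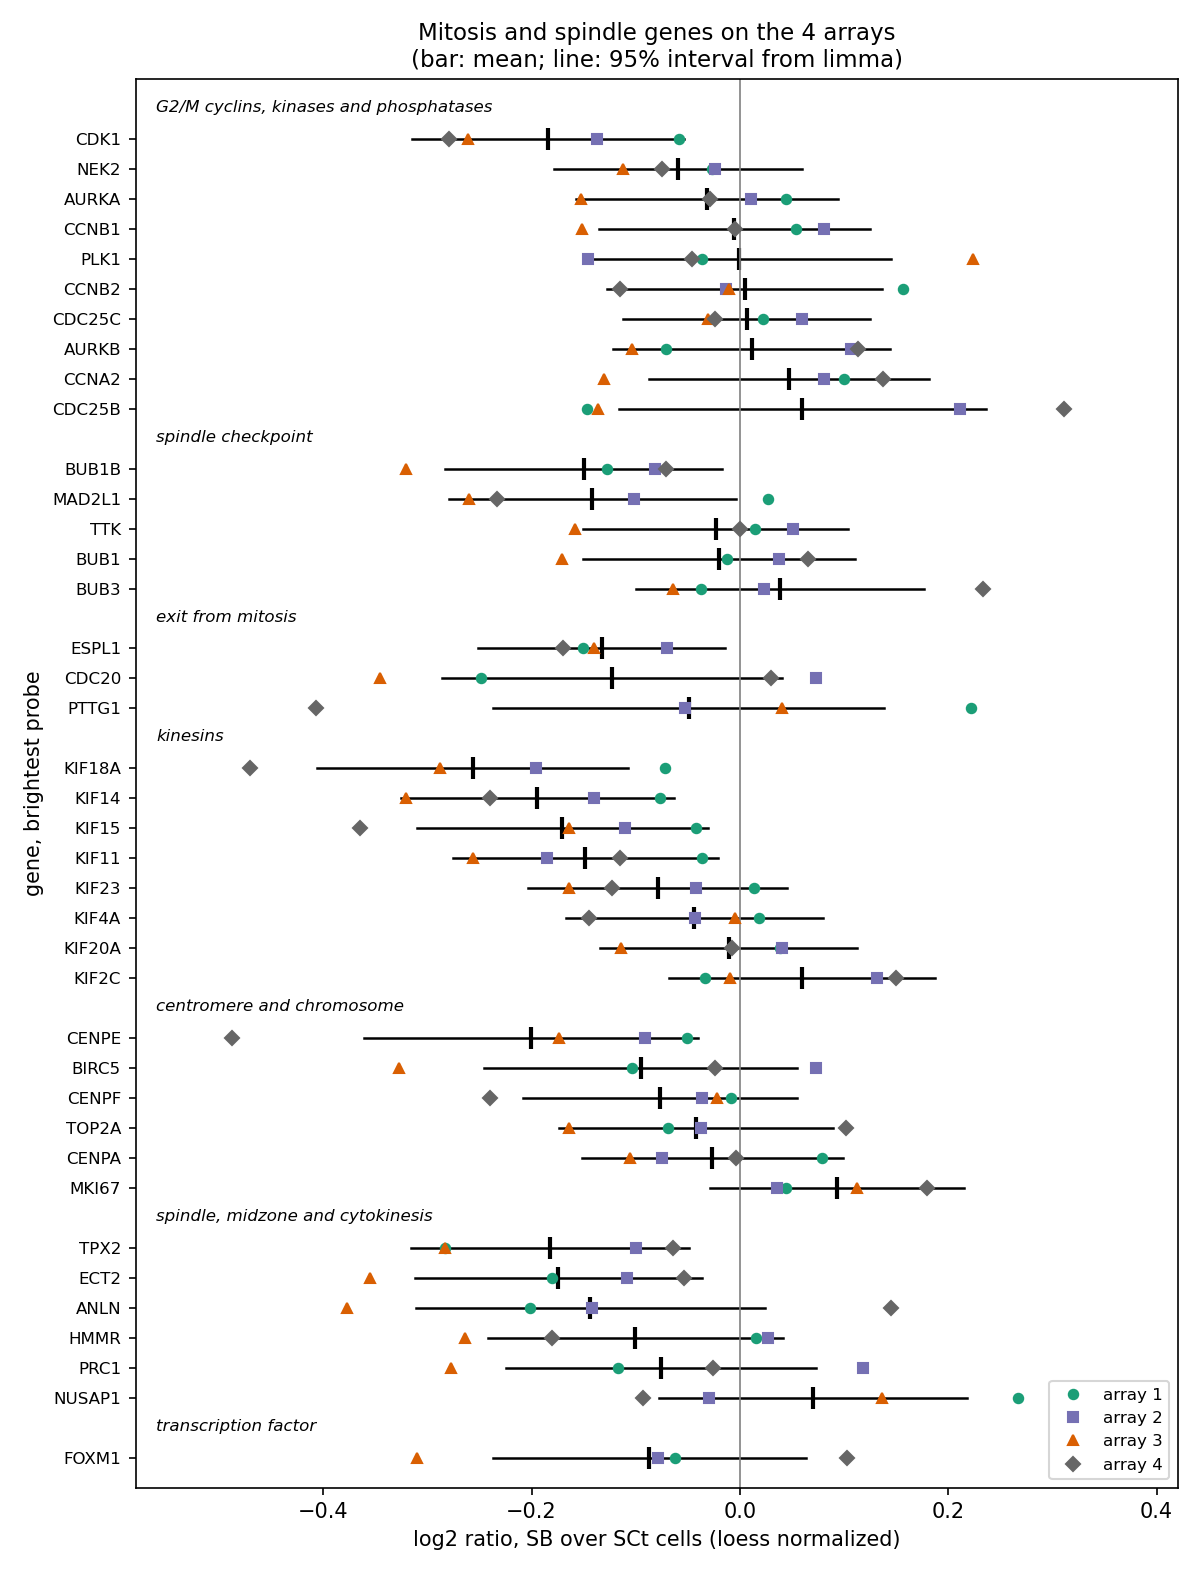
Log2 ratio of SB over SCt cells after loess normalization (horizontal axis) for the 39 genes (vertical axis, grouped by role and ordered by mean), with 1 point per array, a bar at the mean and a line for the 95% interval from limma. Means run from −0.26 (KIF18A) to 0.09 (MKI67), and in most genes the 4 arrays spread to both sides of 0.

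Many mitotic genes share short promoter elements: a CHR element, to which the DREAM and MuvB complexes bind, and CCAAT boxes, to which NF-Y binds. Of the 40 genes, 33 had a promoter in the RefSeq table (GRCh38.p14), taken as 250 bases before the transcription start and 50 after it. AURKA, BUB3, TTK, UBE2C, BIRC5, TPX2 and FOXM1 had no entry. The letters TTTGAA, the core of the CHR, were found on either strand in 22 of the 33 (66.7%), against 15.4% of all 27305 promoters in the table. CCAAT was found on either strand in 26 (78.8%, against 35.7%), and the E2F letters TTTCCCGC in 1, CENPA (3.03%, against 1.66%). The stretches below show both elements in 4 genes at the ends and the middle of the range of log2 ratios after loess: KIF18A, the lowest, CDK1, the lowest kinase, PLK1, close to 0, and MKI67, the highest. They are written 5′ to 3′ on the gene's strand, and capitals mark TTTGAA and CCAAT on either strand (TTCAAA and ATTGG on the other), which overlap by their letters in MKI67. That of KIF18A (minus strand, chr11:28108137-28108256) reaches across the start site, those of PLK1 (plus strand, chr16:23678770-23678889) and MKI67 (minus strand, chr10:128126423-128126542) end at its first base, and that of CDK1 (plus strand, chr10:60778081-60778199) lies upstream of it.
KIF18A: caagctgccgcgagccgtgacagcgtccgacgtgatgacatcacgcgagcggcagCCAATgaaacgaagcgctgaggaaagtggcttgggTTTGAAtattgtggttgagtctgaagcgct
CDK1: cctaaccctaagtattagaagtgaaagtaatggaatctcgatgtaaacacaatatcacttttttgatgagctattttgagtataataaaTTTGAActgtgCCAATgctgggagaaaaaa
PLK1: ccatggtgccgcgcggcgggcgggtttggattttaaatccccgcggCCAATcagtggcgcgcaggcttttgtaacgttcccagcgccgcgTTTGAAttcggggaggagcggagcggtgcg
MKI67: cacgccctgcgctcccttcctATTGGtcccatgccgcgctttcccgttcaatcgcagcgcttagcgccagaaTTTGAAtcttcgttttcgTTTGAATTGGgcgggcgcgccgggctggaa
These 4 genes were chosen for their places in the range, so their spread over it follows from that choice. After loess the 22 genes with TTTGAA had log2 ratios from −0.26 to 0.09 with a median of −0.11. The 11 without it had ratios from −0.20 to 0.06 with a median of −0.01. With CCAAT the median was −0.05 (26 genes) and without it −0.14 (7 genes). These medians are descriptions of overlapping ranges, and no test of their difference was run. They were not taken with median centring.

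The cyclins, kinases and phosphatases of the G2/M transition had 5 of 10 genes below 0 and a median of 0.00 after loess, and 1 of 10 below 0 and a median of 0.13 with median centring. The values per array in this and the following groups are after loess. CDK1, the kinase that starts mitosis, was the lowest of them. It was read by a probe spotted 10 times, with log2 ratios of −0.06, −0.14, −0.26 and −0.28 on arrays 1 to 4. All 4 lay below 0, arrays 3 and 4 lower than the others, with a mean of −0.18 ± 0.10 (SD, n = 4 arrays, 95% interval −0.31 to −0.05) and an adjusted p of 0.117 from limma. Its partners did not share this value. CCNB1, the cyclin B1 that activates CDK1, gave 0.05, 0.08, −0.15 and 0.00, with array 3 alone well below 0, and a mean of −0.01 (interval −0.14 to 0.12). CCNB2 had a mean of 0.00 and CCNA2, the cyclin of S and G2 phase, of 0.05.

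CDC25B, a phosphatase that activates CDK1 at the onset of mitosis, had the highest mean of this group, 0.06 ± 0.24 (SD, n = 4 arrays). Its arrays split into −0.15 and −0.14 on arrays 1 and 3 and 0.21 and 0.31 on arrays 2 and 4, so that the mean described none of them. CDC25C, its relative, varied least of the group, with a mean of 0.01 and an SD of 0.04. Among the kinases, AURKA, which acts at the centrosomes, had a mean of −0.03, AURKB, the kinase of the chromosomal passenger complex, 0.01, and NEK2, which helps to separate centrosomes, −0.06. PLK1, a kinase needed at nearly every step of mitosis and the brightest probe among these genes, gave −0.04, −0.15, 0.22 and −0.05, with array 3 on the opposite side of the other 3 and a mean of 0.00.

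The 5 spindle checkpoint genes ranged from −0.15 to 0.04 after loess, 4 of them below 0, and from 0.02 to 0.22 with median centring, 0 of them below 0. BUB1B, which encodes the checkpoint protein BUBR1, was the lowest, with −0.13, −0.08, −0.32 and −0.07. Each array lay below 0 and array 3 was far below the other 3, with a mean of −0.15 ± 0.12 (SD, n = 4 arrays) and an adjusted p of 0.209 from limma. BUB3, its binding partner, gave −0.04, 0.02, −0.06 and 0.23, a mean of 0.04 ± 0.13 (SD) that rested on array 4. MAD2L1, which encodes the checkpoint effector MAD2, had a mean of −0.14, and the kinases BUB1 and TTK had means of −0.02 each.

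The 3 genes of mitotic exit had the widest spread of the groups after loess, with a median SD of 0.21. ESPL1 encodes separase, the protease that cuts cohesin, and gave −0.15, −0.07, −0.14 and −0.17, below 0 throughout, with a mean of −0.13 ± 0.04 (SD, n = 4 arrays) and an adjusted p of 0.213 from limma. PTTG1 encodes securin, the inhibitor of separase, and gave 0.22, −0.05, 0.04 and −0.41, on both sides of 0, with a mean of −0.05 ± 0.26, the largest SD of the 39 genes. CDC20, which directs the anaphase-promoting complex to securin, had a mean of −0.12 ± 0.21, with −0.25 and −0.35 on arrays 1 and 3 and 0.07 and 0.03 on arrays 2 and 4.

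Of the 8 kinesins, 7 had a mean below 0 and 4 were below 0 on all 4 arrays after loess, with a median of −0.11, whereas with median centring these numbers were 3 and 1, with a median of 0.03. KIF18A, which dampens chromosome movements at the spindle's plus ends, had the lowest log2 ratio of all 39 genes. Its median intensities on arrays 1 to 4 were 852, 517.5, 945 and 543 in the SB channel and 447, 390.5, 787 and 470 in the SCt channel. After normalization these gave −0.07, −0.20, −0.29 and −0.47, all below 0, with array 4 lowest and array 1 nearest to 0. The mean was −0.26 ± 0.17 (SD, n = 4 arrays, 95% interval −0.41 to −0.11), which is 1.19-fold lower in SB than in SCt (adjusted p = 0.0634 from limma). It passed with an adjusted p of 0.0409 when limma's prior variance was fitted to brightness with the robust option, and of 0.0482 with median centring.

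KIF14, a kinesin of cytokinesis, gave −0.08, −0.14, −0.32 and −0.24, with a mean of −0.19. KIF15, which helps to keep the spindle bipolar, gave −0.04, −0.11, −0.16 and −0.36, with a mean of −0.17. KIF11, the motor Eg5 that pushes the poles apart, gave −0.04, −0.18, −0.26 and −0.11, with a mean of −0.15. In these 3 genes all arrays lay below 0, array 1 was nearest to it, and the adjusted p ranged from 0.102 (KIF14) to 0.195 (KIF11) with limma. KIF23 and KIF20A, motors of the midzone, had means of −0.08 and −0.01, and KIF4A, which binds chromosomes and the midzone, −0.04. KIF2C, which takes microtubules apart at centromeres, had the highest kinesin mean, 0.06 ± 0.09 (SD, n = 4 arrays), from −0.03, 0.13, −0.01 and 0.15.

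Among the 6 centromere and chromosome genes, CENPE and MKI67 marked the ends. CENPE, a kinesin that carries chromosomes to the metaphase plate, gave −0.05, −0.09, −0.17 and −0.49, all below 0 with array 4 far from the rest, and a mean of −0.20 ± 0.20 (SD, n = 4 arrays, adjusted p = 0.164 from limma). MKI67, the proliferation marker Ki-67, gave 0.04, 0.04, 0.11 and 0.18, above 0 throughout, with a mean of 0.09 ± 0.07 (SD, 95% interval −0.03 to 0.22) and an adjusted p of 0.408 from limma. Its median intensities were 8930, 7361.5, 9585 and 6343 in the SB channel and 3939, 4592.5, 5692 and 3489 in the SCt channel. The remaining members lay between: BIRC5 (survivin) had a mean of −0.10, CENPF, a kinetochore protein, −0.08, TOP2A, the topoisomerase of chromosome condensation, −0.04, and CENPA, the histone of centromeres, −0.03.

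The 6 genes of the spindle, midzone and cytokinesis had a median of −0.12 after loess and of 0.00 with median centring. TPX2, which activates AURKA on the spindle, was the lowest, with −0.28, −0.10, −0.28 and −0.06. These lay below 0 in pairs, arrays 1 and 3 lower than arrays 2 and 4, with a mean of −0.18 ± 0.12 (SD, n = 4 arrays) and an adjusted p of 0.13 from limma. ECT2, the exchange factor that starts the cleavage furrow, gave −0.18, −0.11, −0.35 and −0.05, again below 0 on each array, with a mean of −0.17. NUSAP1, a microtubule-bundling protein, was the highest, 0.07 ± 0.16 (SD), from 0.27, −0.03, 0.14 and −0.09. ANLN, the furrow scaffold anillin, had a mean of −0.14 ± 0.22 (SD), with array 4 above 0 at 0.15. It was the 1 gene of the 39 that passed without array 4, at −0.24 (adjusted p = 0.0341 from limma). In that fit 3.61% of all genes passed as lower. HMMR had a mean of −0.10 and PRC1, the midzone bundler, −0.08. FOXM1, the transcription factor that drives many of these genes, gave −0.06, −0.08, −0.31 and 0.10, with a mean of −0.09 ± 0.17 (SD, n = 4 arrays) and an adjusted p of 0.545 from limma.

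More than 1 probe was present for 8 genes, and their probes give a comparison that the arrays do not. Error of a probe and a difference between the transcripts that the probes read cannot be told apart here. In CCNB1, KIF23 and MKI67 the probe means had the same sign, and in the other 5, PLK1, NEK2, BUB3, KIF4A and CENPF, they did not. The means of one gene's probes were 0.03 to 0.12 apart on the log2 scale, as large as many of the gene means themselves. The 2 probes of PLK1 had means of 0.00 and 0.07, and both were highest on array 3 (0.22 and 0.31). The 3 probes of MKI67 had means of 0.09, 0.14 and 0.08, so that the highest gene of the list after loess was on the same side of 0 by each. For KIF4A the brighter probe had a mean of −0.04 and the other, above 0 on all 4 arrays, 0.07.

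**Figure D2:**
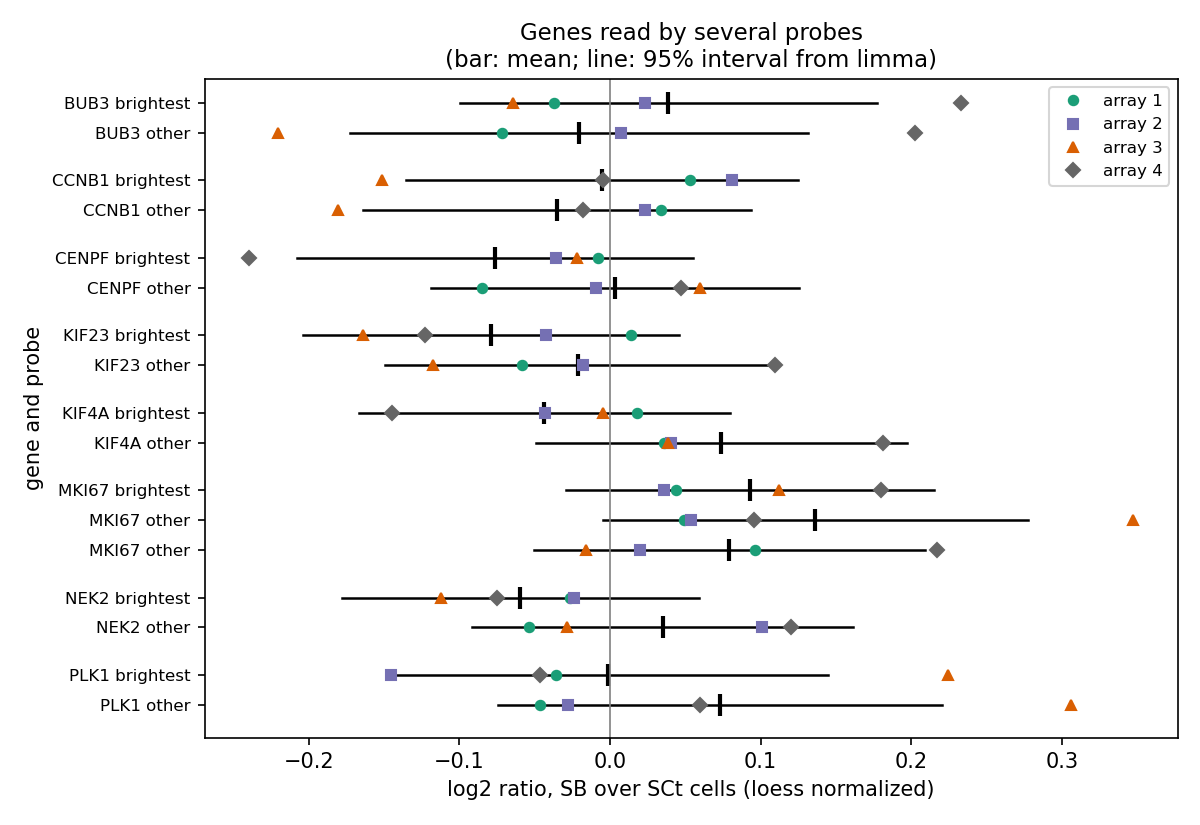
Log2 ratio of SB over SCt cells after loess normalization (horizontal axis) for each probe of the 8 genes with several probes (vertical axis, brightest probe first), with 1 point per array, a bar at the mean and a line for the 95% interval from limma. The probes of MKI67 all have means above 0 (0.08 to 0.14), while those of PLK1, NEK2, BUB3, KIF4A and CENPF lie on both sides of 0.

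The probes of 7 genes, BIRC5, TOP2A, CCNB1, CDK1, CENPE, KIF20A and CCNA2, were spotted 10 times on each array. Within an array their spots had an SD of 0.024 to 0.087 on the log2 scale. Between arrays the same probes had an SD of 0.072 to 0.198, and for each of the 7 it was larger than the SD between spots on any array.

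Array 3 stood apart in these genes. The medians of the 39 genes were −0.04, −0.04, −0.16 and −0.05 on arrays 1 to 4, while those of all genes were 0.00, 0.01, 0.02 and 0.01. On array 3, 35 of the 39 lay below 0 (44.6% of all genes did), and 24 of the 39 had their lowest value there (24.7% of all genes did). PLK1, MKI67, NUSAP1 and PTTG1 were the 4 above 0 on that array. The same array gave medians of −0.16 for DNA replication genes, −0.12 for other mitotic genes and −0.13 for the squamous markers. It was also the array with the brightest channels, and the part of brightness in its values was not tested. Without array 3, 24 of the 39 genes had a mean below 0, the median was −0.04, and 3 genes in place of 11 were lower at an unadjusted p under 0.05, with 0 past the adjusted threshold by limma. Calls over the whole array also became fewer in that fit: 6.43% of all genes were lower at an unadjusted p under 0.05, and 204 probes in place of 1056 passed after adjustment.

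**Figure D3:**
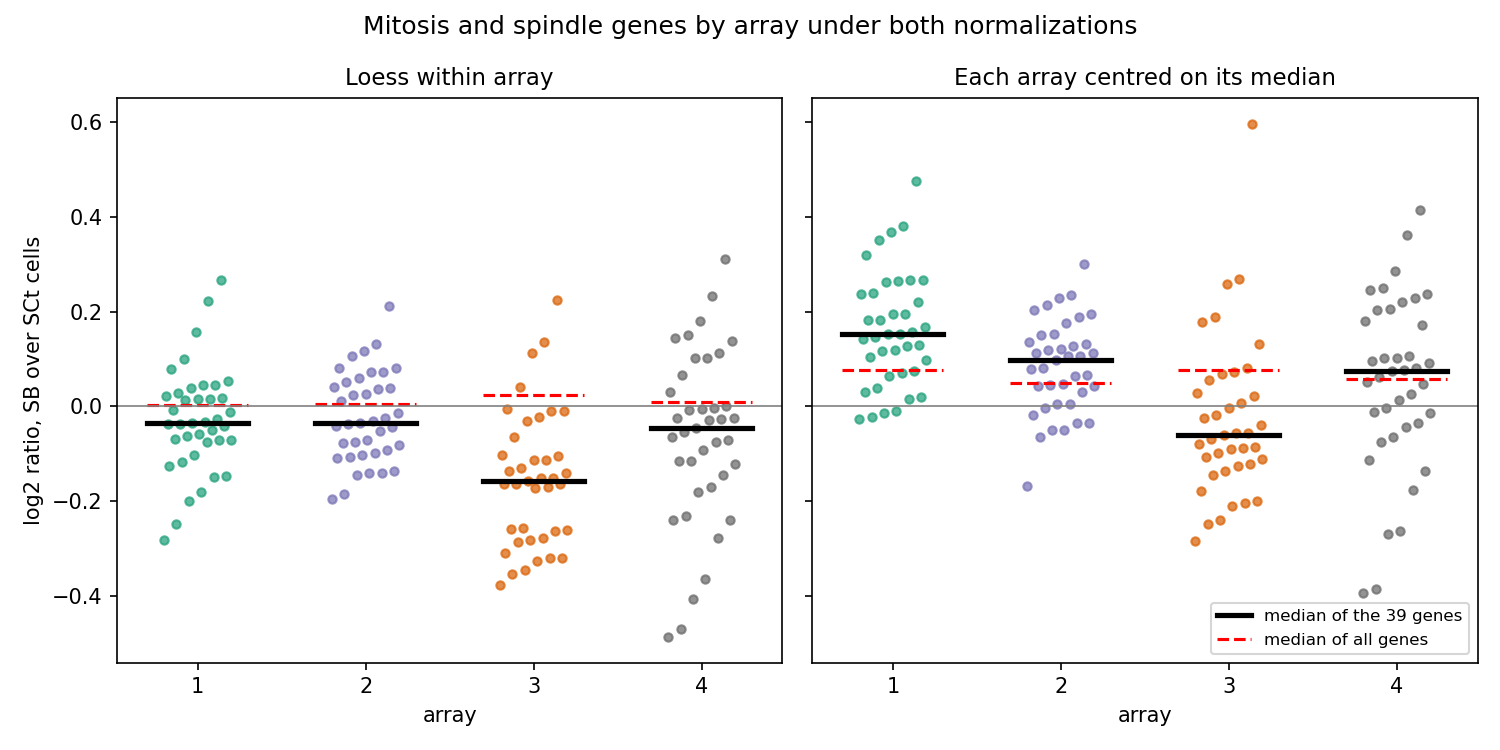
Log2 ratio of SB over SCt cells (vertical axis) of the 39 genes on each array (horizontal axis), after loess on the left and with each array centred on its median on the right, with 1 point per gene, a black line at their median and a dashed red line at the median of all genes. Array 3 has the lowest median of the 39 genes under both (−0.16 and −0.06), and centring moves the medians of the other arrays from −0.04, −0.04 and −0.05 to 0.15, 0.10 and 0.08.

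The sign of these small ratios depended on the normalization. Loess removes the trend of the ratio with brightness, and centring on the median leaves it in. On these arrays, the difference between the normalizations rose with brightness over all genes, from a median of −0.26 in the dimmest 10% of genes to 0.27 in the brightest 10%. Of the 39 genes, 37 were brighter than the median gene, and centring placed them 0.06 to 0.32 higher than loess, with a median of 0.12. Under centring 4 genes passed the adjusted threshold with a higher level in SB cells (PLK1 at 0.32, MKI67 at 0.24, BUB3 at 0.22 and KIF2C at 0.18) and KIF18A with a lower one (−0.20). By that setting 20.8% of all genes passed as higher and 11.2% as lower, so the 4 and 1 of 39 are smaller shares than those of all genes. Relative to the all-gene median, the per-array medians of the 39 genes under centring were higher on arrays 1, 2 and 4 and lower on array 3.

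**Figure D4:**
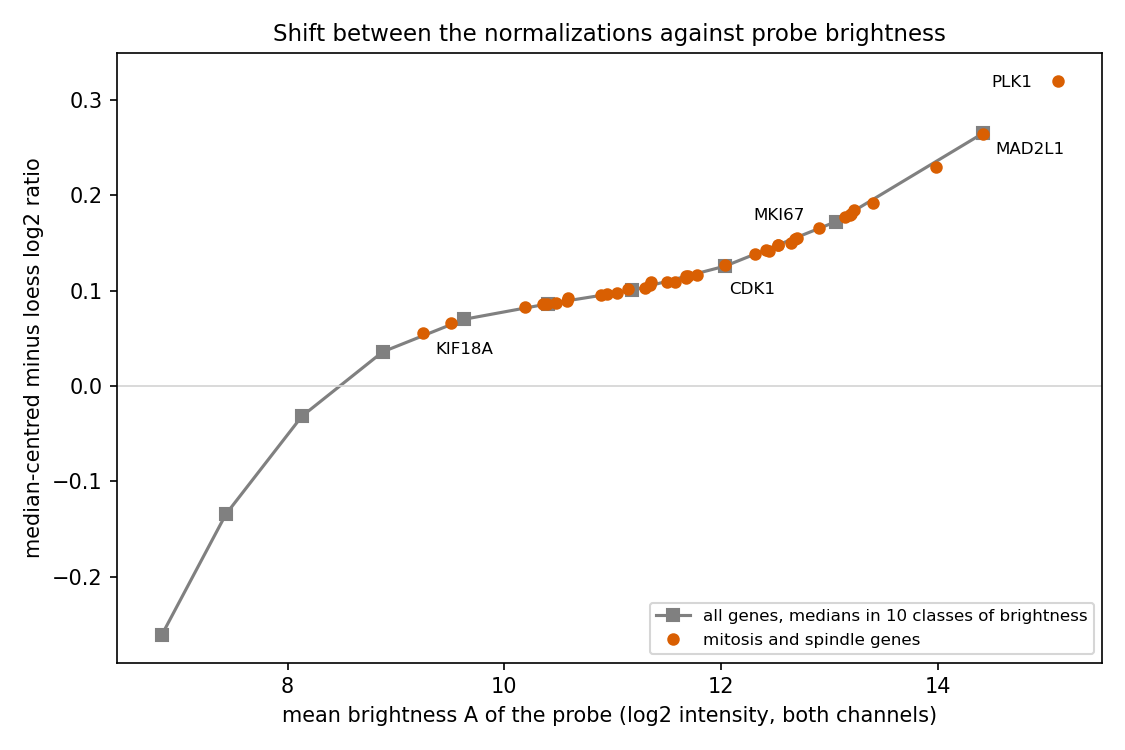
Difference between the median-centred and the loess log2 ratio (vertical axis) against the mean brightness A of the probe (horizontal axis, log2 intensity over both channels), with grey squares for the medians of all genes in 10 classes of brightness and orange points for the 39 genes. The points follow the curve of all genes and reach from 0.06 (KIF18A) to 0.32 (PLK1).

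Some other mitotic genes did pass the test. Of 104 other mitotic genes (kinetochore, anaphase-promoting complex, condensin and cohesin, other kinesins, mitotic entry, cytokinesis and transcription), 5 fell and 0 rose after loess with a median of −0.04, whereas with median centring 5 fell and 19 rose with a median of 0.07. After loess 2.26% of all genes fell and 1.26% rose, and with centring 11.2% fell and 20.8% rose. The 5 that fell after loess were also past the threshold in the same direction with median centring, and CENPK alone passed when array 3 was left out. CENPK, a subunit of the inner kinetochore, fell the most, with −0.55, −0.65, −0.62 and −0.75 on the 4 arrays, a mean of −0.64 ± 0.08 (SD, n = 4 arrays, adjusted p = 0.000123 from limma). Its 4 arrays all lay below the lowest mean of the 39 genes. OIP5, which helps to load CENPA onto centromeres, gave −0.29, −0.40, −0.55 and −0.67, a mean of −0.48. KNTC1, a kinetochore protein of the checkpoint, gave −0.25, −0.31, −0.31 and −0.32, a mean of −0.30 with little spread. E2F4, a subunit of the repressive DREAM complex, had a mean of −0.37, and FZR1, which replaces CDC20 on the anaphase-promoting complex, −0.25. The call of FZR1 was also lost with the software's ratios (adjusted p = 0.0604 from limma), the series table (0.0616) and without array 1 (0.0989) or 2 (0.0892), and that of KNTC1 without array 2 (0.074). CENPA itself, which OIP5 serves, had a mean of −0.03, and CDC20 one of −0.12 that did not pass.

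The 40 DNA replication genes, which precede mitosis in the cycle, had a median of −0.07 after loess, with 4 that fell and 0 that rose, and of 0.08 with median centring, with 1 that fell and 8 that rose of 40, where 11.2% of all genes fell and 20.8% rose by that setting. The 4 that fell after loess were CDC7, a kinase that fires origins (−0.36), TYMS, thymidylate synthase (−0.33), UHRF1, which guides maintenance methylation of DNA (−0.30), and TK1, thymidine kinase (−0.27). TYMS lay above 0 on array 1 at 0.02, and the other 3 were below 0 on each array. With median centring CDC7 alone of the 4 passed, at −0.24. TYMS (−0.15), UHRF1 (−0.17) and TK1 (0.01) did not pass by that setting. Without array 3 none of the 4 passed. With the software's ratios 1 of the 4 passed, CDC7. The 9 genes of both lists were called in the fit over all probes, and whether they differ from the 39 mitosis and spindle genes was not tested.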

How the data were processed

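The arrays are Agilent human V2 arrays read with Feature Extraction 10.5.1.1, per the submitters' processing notes. For each array the authors deposited red (SB) and green (SCt) median intensities per spot, not normalized, with a local background. The deposited files also hold log10 ratios of SB over SCt from the software, which had subtracted background and normalized the dyes. The authors' table of the whole series holds log2 values. In each array, 92.5% to 95.4% of them matched the software's ratio, converted to log2, within 0.001, so direction and centring are the same.

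Here, with limma 3.58.1 in R 4.3.3, intensities were background-corrected by normexp (offset 50), 1377 control spots and the outlier spots (1.89% to 2.71% per array) were left out, log2 ratios were loess-normalized within each array, and spots of a probe were averaged. A probe was tested if the software marked it as well above background on all 4 arrays in red or on all 4 in green, with at least 2 values. The mean was tested against 0 (lmFit, intercept only, eBayes, two-sided, Benjamini-Hochberg over 28507 probes, threshold 0.05). The offset shrinks ratios of dim probes, and the number of arrays limits the precision. Accessions gave names for 24826 of 34127 probes (RefSeq, GRCh38.p14). The array design uses an earlier build, so probe positions are not given. A gene is its brightest probe. The steps were tested on simulated arrays with planted changes larger than those of the mitosis and spindle genes. That test therefore does not show whether changes of their size would be found.

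Values per array are given for members with a probe past the threshold, for the lowest and highest member of each role, for members with several probes that differ in sign with one past the threshold, for MTDH, and for genes past the threshold in the lists of other mitotic and DNA replication genes (at most 5 in each direction). Further genes were given after their values were seen. All members and lists were chosen with earlier results of these data known. Other settings tried were the series table, the software's ratios, centring on the median, an offset of 0 and no background correction, a filter on dim probes in both channels and no filter, keeping outlier spots, a trended and robust eBayes, the methods' t-test, averaging a gene's probes, a promoter window of 150 bases before the start, and leaving out each array. Median centring with array 3 left out was added after the data were seen.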

Additional observations from a re-analysis of the deposited data

Results flagged for a closer look

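The median log2 ratio of the 39 mitosis and spindle genes was lower on array 3 (−0.16) than on arrays 1, 2 and 4 (−0.04, −0.04 and −0.05), and its gap to the nearest array made up 0.916 of the range of the 4, past Dixon's 95% critical value. It was the 1 of 4 list medians examined that did so. In CENPF, array 4 (−0.24) stood apart from arrays 1 to 3 (−0.01, −0.04 and −0.02), with a gap of 0.879 of the range, and it was the 1 of 49 genes examined. The second probe of CENPF gave −0.09, −0.01, 0.06 and 0.05 on arrays 1 to 4, with array 4 inside the range of the others. Chance marks about 5% of groups in this way.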

How the results depend on the processing

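With median centring 8939 probes passed in all, 7 of them of the mitosis and spindle genes, and 1 of these genes was lower and 4 were higher. Their median log2 ratio was then 0.0642, and PLK1, which after loess lay at 0.00, was higher at 0.32. Among other lists, 24 other mitotic and 9 DNA replication genes passed, and TK1 lay at 0.0095. Of all genes, 1.26% passed as higher and 2.26% as lower after loess, and 20.8% and 11.2% with centring. With centring and array 3 left out, chosen after the data were seen, 5217 probes passed, 4 of the mitosis and spindle genes' probes and 3 of these genes (higher), their median was 0.11, 18 other mitotic genes passed (2 lower and 16 higher), and TK1 lay at 0.019. In that fit 9.57% of all genes passed as higher and 8.87% as lower. With eBayes trend and robust options 1 mitosis and spindle probe and 1 gene (KIF18A, lower) passed, where 2.73% of all genes passed as lower. By the methods' t-test 0 probes passed of all, with 3936 at an unadjusted p under 0.05, and 0 other mitotic and 0 DNA replication genes. DNA replication genes past the threshold numbered 1 with the software's ratios, the series table or an offset of 0, and 2 with the mean over probes. The cause of these changes was not tested.

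Leaving out 1 array at a time, 204 (without array 3) to 1977 (without array 4) probes passed in all. Of the mitosis and spindle genes, 0 to 1 probes and 0 to 1 genes (ANLN, lower, without array 4) passed, of other mitotic genes 1 to 6, and of DNA replication genes 0 to 5. Without array 4, 3.61% of all genes passed as lower. The calls of the 39 genes were as in the report under all other alternatives. In the window of 150 bases before the start, 16 promoters held TTTGAA, 24 CCAAT and 0 TTTCCCGC, of 33. The test was paired by design, because SB and SCt share each array and the ratio within an array was tested. With 4 arrays on 1 slide and no dye swap, dye and shRNA cannot be told apart. The intervals of the 39 genes lay within 0.5 log2 units of 0 after loess, and none are given for median centring.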
